A study of Mus musculus and Macaca nemestrina with 20 samples.

Results

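The genes described here are 9 transcriptional targets and feedback inhibitors of signalling from receptor tyrosine kinases to ERK, together with Ptpn11, which encodes the phosphatase SHP2. They were chosen by gene symbol (Ptpn11, Dusp4, Dusp5, Dusp6, Spry1, Spry2, Spry4, Spred1, Etv4 and Etv5, and the same symbols in capitals in the monkey) with fold changes and calls of both comparisons below already known. Which of those values weighed in the choice is not recorded. Differences of these genes between knockout and flox, and between SADBE and vehicle, are therefore given as descriptions. All 10 symbols were found among 29766 mouse genes and all 10 among 35194 monkey genes.

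Bulk RNA was sequenced from dorsal root ganglia (DRG), the clusters of sensory neuron cell bodies beside the spinal cord. In mice, 7 libraries labelled ADAM17 KO were compared with 7 labelled ADAM17 flox, the animals that the sample titles call controls. ADAM17 is a membrane protease that sheds ligands of receptor kinases, among them several that activate the EGF receptor. The labels split the mouse libraries into batch 1, with 4 knockout and 3 flox libraries, and batch 2, with 3 knockout and 4 flox libraries. In the pig-tailed monkey (Macaca nemestrina), 3 libraries of DRG that serve skin given SADBE (squaric acid dibutyl ester, which provokes contact allergy) were compared with 3 libraries of DRG from vehicle-treated control skin. The Cre driver, the deleted exons, the age of the animals, the dose and time of SADBE, and the number of animals per library are not stated in the labels used here. Replicates are libraries, and p-values measure the spread between libraries.

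Growth factors bind receptor tyrosine kinases, which recruit adaptors and SHP2 and switch RAS on. RAS then passes the signal through RAF and MEK to the kinase ERK. ERK induces the ETS-family transcription factors Etv4 and Etv5 and also the inhibitors that end its own signal: the phosphatases Dusp4, Dusp5 and Dusp6, which remove phosphate from ERK, and the Sprouty and Spred proteins, which act at the level of RAS and RAF. In textbook accounts the transcripts of these genes are used as readouts of ERK activity. In sensory neurons the same cascade carries the signal of neurotrophins such as BDNF.

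Estimated counts summed to between 12.1 and 14.7 M (M, counts times 1000000) for the batch 1 knockouts and between 46.9 and 52.1 M for the batch 1 flox libraries. In batch 2 knockout totals ran between 27.9 and 30.8 M, and flox totals between 30.9 and 36.0 M. Monkey totals were 9.02 to 22.4 M for SADBE and 13.7 to 27.1 M for vehicle. Markers of sensory neurons were abundant: Nefl, a neurofilament, averaged 7221 normalised CPM (counts per M after TMM scaling) in knockout and 4399 in flox libraries of batch 2, and 3429 in knockout and 2752 in flox libraries of batch 1. Nefl does not stand for all 9 neuron markers. In batch 2, 3 of them were called higher in knockout by edgeR (adjusted p under 0.05). The 6 not called included markers with a lower mean in knockout. Adam17 itself stood between 16.1 and 34.6 normalised CPM in knockout and between 17.6 and 33.3 in flox libraries, with a log2 fold change of 0.03 ± 0.18 (SE), so its gene-level value does not check the genotype. Knockout library 4 stood apart by its red blood cell markers, which summed to 48730 normalised CPM. SADBE libraries 2 and 3 resembled each other, with a chi-square per gene of 20.9 against 214 to 401 for the other monkey pairs of a group. Knockout libraries 6 and 7 of batch 2 were also close, at 25.6, against 115 and 126 for their pairs with library 5. Knockout libraries 1, 2 and 3 of batch 1, which had fewer counts, stood at 17.7 to 27.7 among themselves.

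Ptpn11, Spry1, Spry2 and Dusp6 carry most of the results below, and the 250 bases before the annotated start of each are shown so that their sequence context can be seen beside the values. The sequences are those of RefSeq on GRCm38.p6, written from far to near the start on the strand of the gene. Capitals mark matches to 3 motifs searched on both strands: the ETS core with its flanks (CCGGAA), the AP-1 site (TGANTCA, with N any base) and the cyclic AMP response element, CRE (TGACGTCA). Of the 10 genes, 7 had an entry in the promoter table.
Ptpn11, chr5:121191398-121191647, minus strand: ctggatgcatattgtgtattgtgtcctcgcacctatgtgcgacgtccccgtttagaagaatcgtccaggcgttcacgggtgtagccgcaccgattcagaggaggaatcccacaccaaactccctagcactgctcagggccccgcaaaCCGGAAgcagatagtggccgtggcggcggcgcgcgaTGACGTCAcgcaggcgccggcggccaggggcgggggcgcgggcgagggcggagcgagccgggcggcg
Spry1, chr3:37639697-37639946, plus strand: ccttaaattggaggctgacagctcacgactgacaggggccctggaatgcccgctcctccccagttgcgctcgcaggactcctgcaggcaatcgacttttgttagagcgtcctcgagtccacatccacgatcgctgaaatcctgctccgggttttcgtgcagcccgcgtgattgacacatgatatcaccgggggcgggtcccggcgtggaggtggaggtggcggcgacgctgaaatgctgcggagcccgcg
Spry2, chr14:105896820-105897069, minus strand: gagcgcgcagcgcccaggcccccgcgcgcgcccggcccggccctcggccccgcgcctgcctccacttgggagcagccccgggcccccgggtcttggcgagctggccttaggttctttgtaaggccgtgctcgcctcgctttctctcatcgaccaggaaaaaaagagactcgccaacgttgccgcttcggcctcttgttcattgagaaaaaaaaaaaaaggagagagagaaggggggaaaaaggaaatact
Dusp6, chr10:99262981-99263230, plus strand: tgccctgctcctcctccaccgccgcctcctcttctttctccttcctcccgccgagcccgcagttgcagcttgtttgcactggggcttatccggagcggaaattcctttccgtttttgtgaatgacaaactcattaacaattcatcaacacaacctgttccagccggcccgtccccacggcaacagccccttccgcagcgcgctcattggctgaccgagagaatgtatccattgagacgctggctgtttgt

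Ptpn11 had 1 ETS match, beginning 103 bases before the start, and 1 CRE match, beginning 67 bases before it. Among 32851 promoter windows of the same length, 12% held the ETS letters, 6.75% the AP-1 letters and 1.55% the CRE letters. None of the 3 motifs was found in the windows of the other 6 genes with an entry, which says only that these letters are not in those windows. The gene Ptpn11 lies on GRCm38 chromosome 5 from 121130533 to 121191397. Spry2 lies on chromosome 14 from 105891947 to 105896819, Spry1 on chromosome 3 from 37639947 to 37644598, and Dusp6 on chromosome 10 from 99263231 to 99267489.

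The levels of the 10 genes spanned more than a decade within each batch of mice. TPM (transcripts per M) was used for this order because it is scaled for transcript length. The deposited TPM columns sum to different totals in the 2 batches and among the libraries of batch 1, so TPM here orders the genes within a batch and genotypes are compared by normalised CPM. Ptpn11 in batch 1, for one, averaged 66.7 normalised CPM in knockout and 71.0 in flox libraries, the other way round from its TPM. In batch 1, Etv5 was first, with 23.4 ± 7.23 TPM in the 4 knockout libraries and 14.8 ± 4.59 TPM in the 3 flox libraries (mean ± SD, also below). Dusp6 averaged 14.3 ± 1.12 TPM in knockout and 11.7 ± 1.20 TPM in flox libraries, and Ptpn11 13.5 ± 2.25 TPM in knockout and 12.9 ± 1.44 TPM in flox libraries. Spred1, Dusp5, Spry1 and Spry2 followed, with means of 7.14 to 10.6 TPM in knockout and 7.06 to 8.93 TPM in flox libraries. Spry4 averaged 5.43 ± 1.62 TPM in knockout and 3.66 ± 0.821 TPM in flox libraries, whereas Etv4 averaged 1.71 ± 0.941 TPM in knockout and 1.91 ± 0.614 TPM in flox libraries. Dusp4 was last, with 0.377 ± 0.234 TPM in knockout and 0.257 ± 0.0633 TPM in flox libraries. Neighbours from Etv5 down to Spry4 overlapped in their knockout libraries. The steps from Spry4 to Etv4 and from Etv4 to Dusp4 did not overlap in either genotype.

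In batch 2 the order was different. Spry2 was first, with 219.9 ± 60.5 TPM in the 3 knockout libraries and 264 ± 8.12 TPM in the 4 flox libraries (mean ± SD), and no library of another member came near it. Dusp6 averaged 23.4 ± 4.05 TPM in knockout and 21.1 ± 3.30 TPM in flox libraries. Etv5 averaged 23.0 ± 8.50 TPM in knockout and 20.7 ± 5.47 TPM in flox libraries, and Dusp6 and Etv5 overlapped each other. Spry4, Spred1, Ptpn11, Etv4, Dusp5 and Spry1 lay below them, with means of 1.14 to 7.61 TPM in knockout and 2.03 to 7.21 TPM in flox libraries. Dusp4 was again last, with a mean of 0.161 ± 0.0854 TPM in knockout and 0.523 ± 0.262 TPM in flox libraries.

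**Figure D1:**
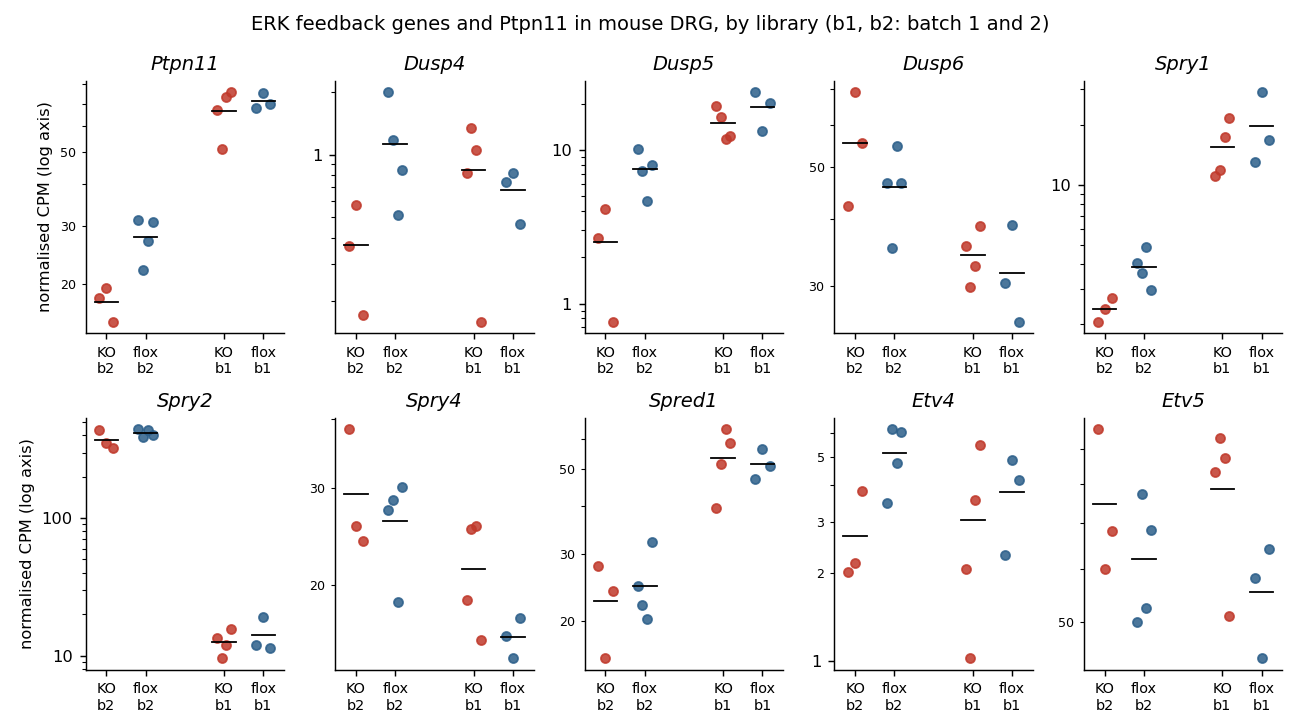
Normalised CPM (counts per M scaled by TMM, log axis, each panel on its own scale) of the 10 genes in each mouse library, with knockout (KO) left of flox in batch 2 (b2) and in batch 1 (b1); points are libraries and bars are group means. The knockout libraries of batch 2 lie below all flox libraries of batch 2 for Ptpn11, Dusp5 and Spry1, and Spry2 is about 30 times higher in batch 2 than in batch 1 in both genotypes.

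The 2 batches of mice were compared in a model with genotype as a term. This comparison did not enter the choice of the genes as far as it is recorded, and it was added after values had been seen. Of 15654 genes, 60.5% were called between the batches (adjusted p under 0.05 in edgeR's quasi-likelihood test with Benjamini-Hochberg adjustment). Of the 10 genes, 7 were called, 3 higher and 4 lower in batch 2. Spry2, whose protein blocks RAS activation downstream of receptor kinases, had 440, 355 and 324 normalised CPM in knockout and 444, 391, 440 and 404 in flox libraries of batch 2. Its batch 1 values were 13.4, 9.55, 11.9 and 15.6 normalised CPM in knockout and 11.9, 19.1 and 11.4 in flox libraries. No library of a batch came near those of the other batch, and the log2 fold change of batch 2 over batch 1 was 4.89 ± 0.16 (SE), or 29.7-fold, and edgeR's adjusted p was 6.04e-13. This was the 105th largest absolute change of 15654 genes. Within each genotype the ratio of the batch means was 29.6 in knockout and 29.8 in flox libraries. The ratio of estimated count to TPM, set against the median ratio of the library, moves with the transcript length that the counting assigns to a gene. For Spry2 it ran from 0.786 to 0.814 over all 14 libraries. A steady ratio says only that this length was steady, and does not test how reads were assigned to the gene. Spry1, the paralog of Spry2, went the other way: it was lower in batch 2 by 2.51 ± 0.23 on the log2 scale, with an adjusted p of 9.82e-08.

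Dusp5, a nuclear phosphatase of ERK, was also lower in batch 2, with a log2 fold change of -1.93 ± 0.34 and an adjusted p of 0.000118 in edgeR. Ptpn11 was lower with a log2 fold change of -1.63 ± 0.14 and an adjusted p of 4.19e-08, and Spred1, a Sprouty-related inhibitor of RAF activation, with -1.15 ± 0.15 and 6.10e-06. Dusp6, the cytoplasmic phosphatase of ERK, was higher with 0.62 ± 0.14 and an adjusted p of 0.000884. Spry4 was higher with 0.58 ± 0.16 and an adjusted p of 0.00459. Etv5 (0.04 ± 0.16), Etv4 (0.14 ± 0.34) and Dusp4 (-0.16 ± 0.55) were not called. The batch is given in the labels as a number only, so what differed between the batches is not known from them. Because of these differences, the knockout comparison was made with batch as a term and is also given within each batch.

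The comparison of knockout with flox DRG asks how the transcripts of this feedback system stood in ganglia of animals labelled as lacking a protease that releases receptor kinase ligands. None of the 10 genes was called, while 15.5% of all 15654 genes were: 1248 higher and 1175 lower in knockout. The median log2 fold change of the 10 genes was -0.27, against -0.01 for all genes tested, with 3 genes above 0 and 7 below. At an unadjusted p under 0.05 in edgeR's test, 4 of the 10 passed, against 4831 of all 15654 genes. DESeq2 called 1 of the 10, Dusp5, lower in knockout, where it called 21.2% of all genes. The log2 fold changes ran from -0.93 for Dusp5 to 0.39 for Etv5.

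Within batch 2, Ptpn11 was called, lower in knockout, where 13.2% of 15780 genes were called. Ptpn11, Dusp5 and Spry1 had groups that did not overlap in batch 2, all lower in knockout, where 27.0% of all genes did not overlap. Within batch 1, none of the 10 genes was called, where 1.80% of 15140 genes were, and the genotypes overlapped for all 10, where 14.1% of all genes did not overlap. For batch 2, both shares of the 10 genes lay near those of all genes.

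Ptpn11 had 18.2, 19.6 and 15.4 normalised CPM in knockout and 31.2, 22.03, 26.9 and 30.7 in flox libraries of batch 2. Its batch 1 values were 66.7, 51.3, 73.2 and 75.6 normalised CPM in knockout and 68.0, 75.6 and 69.6 in flox libraries. Every knockout library lay below every flox library in batch 2, whereas the genotypes overlapped in batch 1. The log2 fold change stood at -0.64 ± 0.18 in batch 2, -0.12 ± 0.16 in batch 1 and -0.36 ± 0.13 over both. The difference between the batches' knockout effects (the interaction) was -0.55 ± 0.23. It is made from the same knockout and flox values that were known when the genes were chosen, so it is given with no p for the 10 genes. None of them was called for this interaction, where 1.03% of all genes were.

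Dusp5 had 2.67, 4.15 and 0.764 normalised CPM in knockout and 10.1, 7.29, 4.64 and 8.02 in flox libraries of batch 2. Its batch 1 values were 19.5, 16.5, 11.8 and 12.4 normalised CPM in knockout and 23.7, 13.3 and 20.1 in flox libraries. The highest knockout value of batch 2 lay just under the lowest flox value, and knockout library 7 was the lowest of all 14, with 18 counts. The log2 fold change stood at -1.56 ± 0.50 in batch 2, -0.37 ± 0.25 in batch 1 and -0.93 ± 0.33 over both, and none of these was called. The interaction was -1.23 ± 0.58. Dusp4, another nuclear phosphatase of the family, was close to the limit of detection, with 2 to 21 counts in knockout and 16 to 57 counts in flox libraries. These raw counts are not scaled for depth, which was greater in the flox libraries of batch 1. Dusp4 averaged 0.368 normalised CPM in knockout and 1.13 in flox libraries of batch 2, and 0.844 in knockout and 0.676 in flox libraries of batch 1. Its log2 fold change stood at -1.59 ± 0.74 in batch 2 and 0.30 ± 0.63 in batch 1, of opposite sign, and its interaction was -1.93 ± 0.97. Dusp6 had 42.4, 68.9 and 55.4 normalised CPM in knockout and 46.8, 35.3, 54.8 and 46.7 in flox libraries of batch 2, which overlapped. Its log2 fold change was 0.19 ± 0.13 over both batches, with 0.28 ± 0.19 for batch 2 by itself and 0.08 ± 0.17 for batch 1.

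Of the Sprouty and Spred genes, Spry1 had 2.06, 2.40 and 2.72 normalised CPM in knockout and 4.03, 3.62, 4.90 and 2.95 in flox libraries of batch 2. Its batch 1 values were 11.1, 11.9, 17.4 and 21.5 normalised CPM in knockout and 13.1, 28.9 and 16.7 in flox libraries. The genotypes were apart in batch 2 by a small gap and overlapped in batch 1. The log2 fold change stood at -0.69 ± 0.34 in batch 2, -0.38 ± 0.33 in batch 1 and -0.51 ± 0.22 over both. Spry2, which differed so much between batches, had knockout over flox log2 fold changes of -0.17 ± 0.14 in batch 2 and -0.20 ± 0.25 in batch 1. Spry4 had a log2 fold change of 0.17 ± 0.22 in batch 2 and 0.38 ± 0.20 in batch 1. Spred1 stood at -0.13 ± 0.23 in batch 2 and 0.02 ± 0.18 in batch 1.

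The ETS factors Etv4 and Etv5, which ERK signalling induces in many tissues, stood on opposite sides of 0. Etv4 had 2.02, 2.17 and 3.82 normalised CPM in knockout and 3.48, 6.21, 4.77 and 6.06 in flox libraries of batch 2. Only knockout library 7 reached into the flox range. The log2 fold change of Etv4 stood at -0.94 ± 0.36 in batch 2, -0.36 ± 0.54 in batch 1 and -0.64 ± 0.34 over both. Its ratio of count to TPM, set against the library median, was not steady. In batch 2 the ratio ran from 0.778 to 0.926 in knockout and from 0.651 to 0.887 in flox libraries. Mean TPM of Etv4 there was 1.52 in knockout and 3.84 in flox libraries. Etv5 had 96.2, 60.0 and 68.1 normalised CPM in knockout and 49.98, 77.3, 52.5 and 68.5 in flox libraries of batch 2. Its batch 1 values were 83.2, 93.3, 87.2 and 51.0 normalised CPM in knockout and 58.0, 44.3 and 64.1 in flox libraries. Of the batch 1 knockout libraries, 1, 2 and 3 lay above all flox libraries and library 4 lay within their range. The log2 fold change of Etv5 stood at 0.27 ± 0.21 in batch 2, 0.47 ± 0.22 in batch 1 and 0.39 ± 0.16 over both. Without knockout library 4, Etv5 was called higher and Ptpn11 and Spry1 lower, 3 of the 10 genes where 19.7% of all genes were called. Without flox library 1 Spry1 was called lower, where 17.6% of all genes were called, and without flox library 2 Dusp5 was called lower, where 11.9% were.

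**Figure D2:**
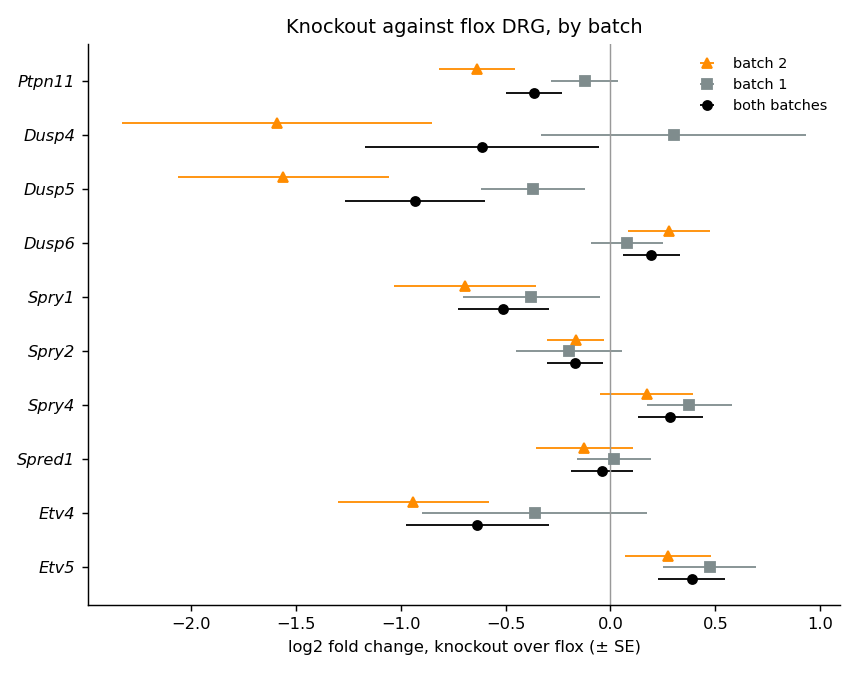
Log2 fold change of knockout over flox (x axis, ± SE) for the 10 genes within batch 2 (triangles), within batch 1 (squares) and over both batches with batch as a term (circles). Dusp4, Dusp5 and Etv4 lie furthest below 0 in batch 2, where Ptpn11 at -0.64 was the only one of the 10 genes called, and Dusp4 lies above 0 in batch 1.

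Markers of cell types differed between the same groups. The marker lists were chosen with earlier results of these data known, so their counts are descriptions. Of 9 marker lists, 6 had sums that did not overlap between the genotypes in batch 2, and 2 in batch 1. In batch 2, where Ptpn11, Dusp5 and Spry1 were apart, the summed normalised CPM of 10 fibroblast and matrix markers lay between 1506 and 3399 in knockout and between 4273 and 5840 in flox libraries. That of 10 Schwann cell and myelin markers lay between 4641 and 6163 in knockout and between 7848 and 11265 in flox libraries. That of 8 neutrophil markers lay between 665 and 1117 in knockout and between 48 and 100 in flox libraries, and that of 9 sensory neuron markers lay between 13601 and 18232 in knockout and between 9957 and 12695 in flox libraries. The satellite glia sum lay between 4935 and 6345 in knockout and between 4152 and 4586 in flox libraries, and the endothelial and mural sum between 531 and 585 in knockout and between 360 and 495 in flox libraries. The knockout sum was thus lower for fibroblast and Schwann cell markers and higher for the other 4 lists. A sum follows its most abundant markers: in batch 2 the median log2 fold change of the endothelial and mural list was -0.33. That of the satellite glia list was 0.18. Over both batches 9 of 10 fibroblast and 7 of 10 Schwann cell markers were called lower, and 8 of 8 neutrophil and 3 of 9 neuron markers higher. Of 8 satellite glia markers, 1 was called higher, and of 9 endothelial and mural markers, 1 was called lower and none higher. In batch 1 the fibroblast sum lay between 1426 and 3354 in knockout and between 3007 and 6031 in flox libraries, which overlapped. The Schwann cell sum of batch 1 lay between 3563 and 5710 in knockout and between 5930 and 6933 in flox libraries, and the neutrophil sum between 1417 and 5112 in knockout and between 175 and 631 in flox libraries, neither of which overlapped. No marker of the 9 lists was at 0 in any mouse library. The part of these markers in the values of the 10 genes was not tested, and in bulk tissue fewer cells of a type and less RNA per cell cannot be told apart.

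Around the 10 genes, 6 lists of other genes of the pathway held 114 genes, of which 105 were tested. These lists too were chosen with earlier results of these data known. Their counts, shares and adjusted p-values, here and below, are therefore given as descriptions and do not test the pathway. edgeR's quasi-likelihood test called 21 of them, or 20%, with 12 higher and 9 lower in knockout, against 15.5% of all genes. Among the ligands, 2 of 16 rose and 3 fell. Bdnf, a neurotrophin made by sensory neurons, rose most: it averaged 224 normalised CPM in knockout and 23.1 in flox libraries of batch 2, and 202 in knockout and 26.6 in flox libraries of batch 1. Over both batches this was a log2 fold change of 3.10 ± 0.15 with an adjusted p of 1.98e-09. Bdnf was called within each batch, at 3.29 ± 0.20 in batch 2 and 2.89 ± 0.19 in batch 1. Nrg1, a ligand of ERBB receptors that signals to Schwann cells, rose by 0.70 ± 0.21 (adjusted p of 0.0315). Igf1, insulin-like growth factor, fell with a log2 fold change of -2.45 ± 0.37 and an adjusted p of 0.000735. It averaged 68.2 normalised CPM in knockout and 208 in flox libraries of batch 2 (-1.61 ± 0.36), and 10.5 in knockout and 105 in flox libraries of batch 1 (-3.37 ± 0.37), and was called in both. Fgf7, a fibroblast growth factor, fell by 0.88 ± 0.25 (adjusted p of 0.0273). The median log2 fold change of the 16 ligands was 0.11.

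Among the receptors, 1 of 17 rose and 4 fell, and the median log2 fold change was -0.17. Egfr, the receptor for several ligands that ADAM17 sheds, fell by 1.33 ± 0.27 on the log2 scale, with an adjusted p of 0.00462 in edgeR. Its value was -1.31 ± 0.39 in batch 2 and -1.39 ± 0.35 in batch 1, where it was called in neither alone. Pdgfra, which is also a fibroblast marker, fell by 0.93 ± 0.20 (adjusted p of 0.00561), and Fgfr1 by 0.48 ± 0.11 (adjusted p of 0.00975). Ntrk3, the receptor of neurotrophin-3, fell by 0.60 ± 0.17 (adjusted p of 0.0279), with -1.06 ± 0.18 in batch 2, where it was called, and -0.16 ± 0.15 in batch 1, where it was not. Igf1r, the receptor of Igf1, rose by 0.91 ± 0.23 (adjusted p of 0.0151). Of 20 adaptors and switches of RAS, 2 fell and none rose: Gab1, a docking protein that binds SHP2, by 0.73 ± 0.16 (adjusted p of 0.00605), and Rasal2, which switches RAS off, by 0.50 ± 0.11 (adjusted p of 0.0086). Next in order of p were Frs3 (-0.51 ± 0.17) and Rasa2 (0.33 ± 0.14), neither of them called.

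In the cascade itself, 4 of 16 genes rose and none fell, with a median log2 fold change of -0.03. They were Nras (0.52 ± 0.16), Braf (0.85 ± 0.26), Map2k1, which encodes MEK1 (0.30 ± 0.10), and the ERK-activated kinase Rps6ka1 (0.50 ± 0.17). Their adjusted p-values in edgeR lay between 0.0398 and 0.0497. Braf stood at 1.38 ± 0.39 in batch 2 and 0.28 ± 0.14 in batch 1, and Nras at 0.83 ± 0.24 in batch 2 and 0.19 ± 0.13 in batch 1, both called in batch 2 alone. In batch 2 Braf averaged 413 normalised CPM in knockout and 160 in flox libraries, against 31.7 and 25.5 in batch 1. Nras averaged 1025 in knockout and 580 in flox libraries of batch 2, against 66.1 and 56.8 in batch 1. Like Spry2, both thus stood much higher in batch 2 in both genotypes. Map2k1 and Rps6ka1 were called in neither batch alone. Of 17 other feedback genes and inhibitors, 2 rose and none fell. These were Flrt3, a membrane protein that binds FGF receptors (0.85 ± 0.18, adjusted p of 0.00537), and Cblb, a ubiquitin ligase of receptors (0.40 ± 0.13, adjusted p of 0.044). The others named by lowest p, Sh2b3 (-0.63 ± 0.21) and the ERK phosphatase Dusp7 (-0.50 ± 0.18), were not called. Of 19 other targets of ERK, 3 rose and none fell: Vgf, a neuropeptide precursor induced by neurotrophins (1.73 ± 0.15, adjusted p of 2.85e-06), Ier3 (0.40 ± 0.11, adjusted p of 0.0266) and Myc (0.43 ± 0.14, adjusted p of 0.0426). Srf stood at -0.67 ± 0.24 and was not called. Within batch 2 the 6 lists held 14 called genes of 104 tested, or 13.5% against 13.2% of all genes, and within batch 1 they held 3 of 105, or 2.86% against 1.80% of all genes. The knockout effect differed between the batches for 1 of 105 genes of the lists, against 1.03% of all genes. This was Gab2, an adaptor that binds SHP2, named after its values were seen (-1.43 ± 0.32, batch 2 minus batch 1, adjusted p of 0.0478). The interaction was not called for Ntrk3 (-0.93 ± 0.24, adjusted p of 0.0778), Igf1 (1.72 ± 0.56, 0.156), Braf (1.05 ± 0.46, 0.316) and Nras (0.60 ± 0.29, 0.387). The marker sums given above differed between the same groups, and their part in the values of these lists was not tested.

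**Figure D3:**
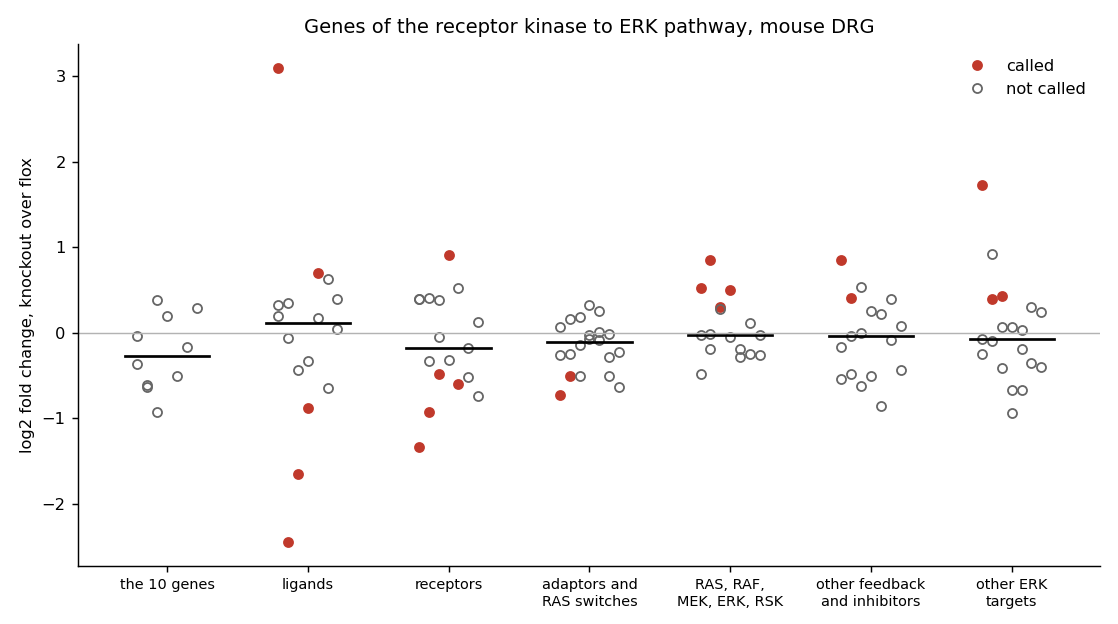
Log2 fold change of knockout over flox DRG (y axis) for the 10 genes and for 6 lists of other genes of the pathway; filled points were called by edgeR, open points were not, and bars are medians. The called genes with the largest changes are the ligands Bdnf at 3.10 and Igf1 at -2.45 and the ERK target Vgf at 1.73, while all 10 points at the left are open.

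The 10 genes were also set against each other from library to library. For each of 45 pairs, log2 normalised CPM was correlated over 14 mouse libraries after the mean of each genotype and batch was taken away, with permutation within these groups and adjustment over the 45 pairs. A single pair passed, and its sign was negative: Dusp6 and Etv5 had r = -0.84 with an adjusted permutation p of 0.0162, and rho = -0.88 with 0.0194. Without the 2 libraries furthest out in Dusp6, knockout 5 and flox 5, r was -0.75. Within batch 1 it was -0.82 and within batch 2 it was -0.88 (n = 7 libraries each). Etv5 and Spry4 had the strongest positive relation, with r = 0.79 and rho = 0.78, which did not pass (adjusted permutation p of 0.0774 and 0.081). With 14 libraries, a pair that did not pass may still move together. How often pairs of other genes pass was not computed, so the count is not a trait of these 10 genes. Normalised CPM values of all genes of a library share its depth and scaling. Sums of cell type markers also differed between libraries of the same genotype and batch. In the batch 1 knockouts the sensory neuron sum ran from 8058 to 11644 normalised CPM. The part of cell composition in these pair relations was not tested.

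**Figure D4:**
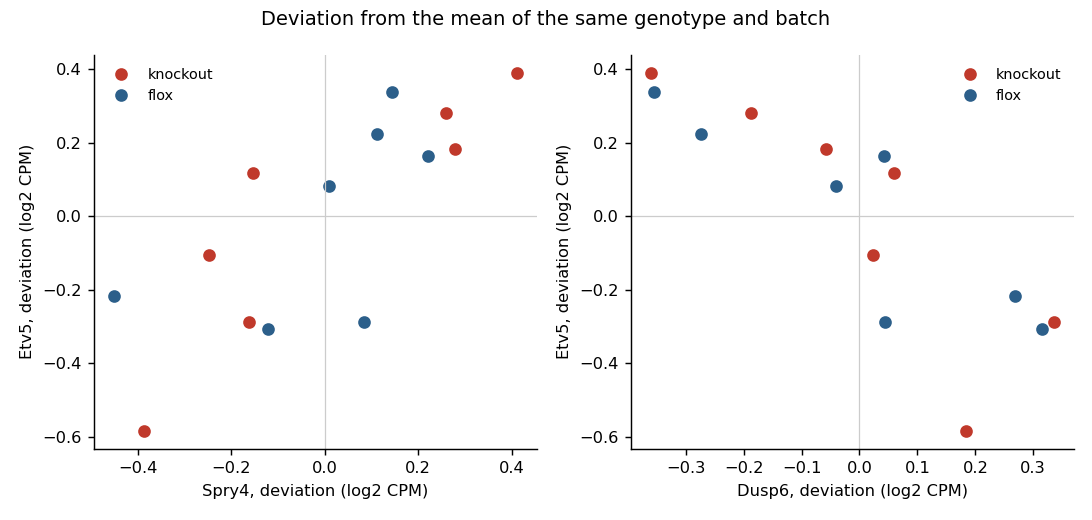
Deviation from the mean of the same genotype and batch (log2 normalised CPM) of Etv5 against Spry4 (left) and against Dusp6 (right) in the 14 mouse libraries, knockout in red and flox in blue. Libraries with high Etv5 have low Dusp6 (r = -0.84), and they tend to have high Spry4 (r = 0.79, which did not pass the adjusted test).

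The genes whose deviations were most like those of Dusp6 over the 14 libraries were Polr1g (r = 0.94), Fdx1 (r = 0.90), Pdcd4 (r = 0.90), Ccdc63 (r = 0.90) and Nupr1 (r = 0.89). For Ptpn11 they were Macf1 (r = 0.94), Tnrc6a (r = 0.91), Slc17a9 (r = 0.91), Son (r = 0.90) and Rfx1 (r = 0.90). These are the highest values among all genes tested and are given as a description. Of the 10 genes named, Nupr1 was called between genotypes, lower in knockout.

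The comparison of DRG from SADBE-treated and vehicle-treated monkey skin asks how the same genes stood in ganglia that serve skin exposed to a contact allergen. edgeR's quasi-likelihood test called none of the 9 genes tested and 0% of all 17988 genes. At an unadjusted p under 0.05 there were 550 genes, and DESeq2 called 27, or 0.178% of those it gave an adjusted p, with PTPN11 as 1 of the 9. The median log2 fold change of the 9 genes was 0.01, against -0.01 for all genes. SPRY4 did not pass the filter on low counts, with 0, 2 and 1 counts in SADBE and 2, 5 and 1 counts in vehicle libraries.

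PTPN11 was apart from the other members. It had 173, 213 and 267 normalised CPM in SADBE libraries, against 53.1, 34.8 and 31.6 in vehicle libraries. Its TPM values were 50.4, 53.3 and 69.2 in SADBE and 14.1, 11.03 and 6.93 in vehicle libraries. Every SADBE library lay above every vehicle library by more than 100 normalised CPM. The log2 fold change was 2.45 ± 0.45 (SE; 5.46-fold), the 181st largest absolute change of 17988 genes, and it was not called by edgeR. It ran from 2.25 to 2.71 when each library was left out in turn and was 2.38 with SADBE libraries 2 and 3 summed as 1 sample. Groups did not overlap for 1 of the 10 genes, PTPN11, and for 9.18% of all genes. The ratio of count to TPM of PTPN11, again set against the median of the library, was 2.33 to 2.36 over the 6 libraries. Here too it speaks only to the assigned length. The summed markers of all 9 cell type lists overlapped between the groups, those of sensory neurons at 10304 to 13682 normalised CPM in SADBE and 4162 to 15061 in vehicle libraries. In the monkey the erythroid list had 1 of 5 genes, skeletal muscle 5 of 7, neutrophil 6 of 8 and sensory neuron 8 of 9. With 3 widely spread libraries per group, overlap does not show that cell composition was alike. In mice the log2 fold change of Ptpn11 was -0.64 ± 0.18 in batch 2, where it was called. It was -0.12 ± 0.16 in batch 1, where the genotypes overlapped, and -0.36 ± 0.13 over both batches, not called. The mouse and monkey values thus had opposite signs for this gene, but edgeR called neither the monkey value nor that over both mouse batches.

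The feedback genes overlapped between SADBE and vehicle libraries without exception. DUSP5 had 4.64, 49.3 and 26.4 normalised CPM in SADBE and 2.17, 6.56 and 71.2 in vehicle libraries. It was high in SADBE libraries 2 and 3 and in vehicle library 3, and low in the other 3 libraries, and its log2 fold change was 0.01 ± 1.20. Without vehicle library 3 it was 2.60, and without SADBE library 2 it was -0.80, neither of them called. SPRY2 had 9.62, 19.96 and 13.6 normalised CPM in SADBE and 8.04, 6.71 and 28.6 in vehicle libraries, again with vehicle library 3 highest. Its log2 fold change was 0.00 ± 0.64, and it was 0.93 without vehicle library 3. The ratio of count to TPM of SPRY2, against the library median, was not steady and ran from 0.819 to 1.08.

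DUSP4 had 31.9, 45.2 and 10.8 normalised CPM in SADBE and 13.9, 18.2 and 13.96 in vehicle libraries. SADBE libraries 1 and 2 lay above all vehicle libraries and SADBE library 3 below them, and the log2 fold change was 0.93 ± 0.55. DUSP6 had 27.8, 18.8 and 18.4 normalised CPM in SADBE and 46.5, 25.4 and 14.3 in vehicle libraries, with a log2 fold change of -0.41 ± 0.51. Its sign turned to 0.13 without vehicle library 1. SPRY1 ran from 9.65 to 22.9 normalised CPM in SADBE and from 4.45 to 31.5 in vehicle libraries, with a log2 fold change of 0.05 ± 0.72 that became 1.22 without vehicle library 1. SPRED1 (0.09 ± 0.49), ETV4 (-0.35 ± 0.59) and ETV5 (-0.60 ± 0.47) were not called either.

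By TPM, PTPN11 was the highest of the 10 genes in SADBE libraries, at 57.6 ± 10.1 TPM (SD, n = 3), against 10.7 ± 3.60 TPM in vehicle libraries. In vehicle libraries DUSP5 (16.7 ± 22.8 TPM) and DUSP6 (12.9 ± 7.98 TPM) had higher means, with spreads that covered that of PTPN11. SPRED1, ETV4 and SPRY4 were the lowest in both groups. SPRED1 averaged 1.96 ± 0.860 TPM in SADBE and 1.83 ± 0.569 TPM in vehicle libraries. SPRY4 stood between 0 and 0.252 TPM in SADBE and between 0.0681 and 0.263 TPM in vehicle libraries, whereas its mouse counterpart had 3.38 to 10.97 TPM in knockout and 2.71 to 8.52 TPM in flox libraries. The sources used here do not give the monkey transcriptome, so a level in one species is not set against the other beyond this.

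**Figure D5:**
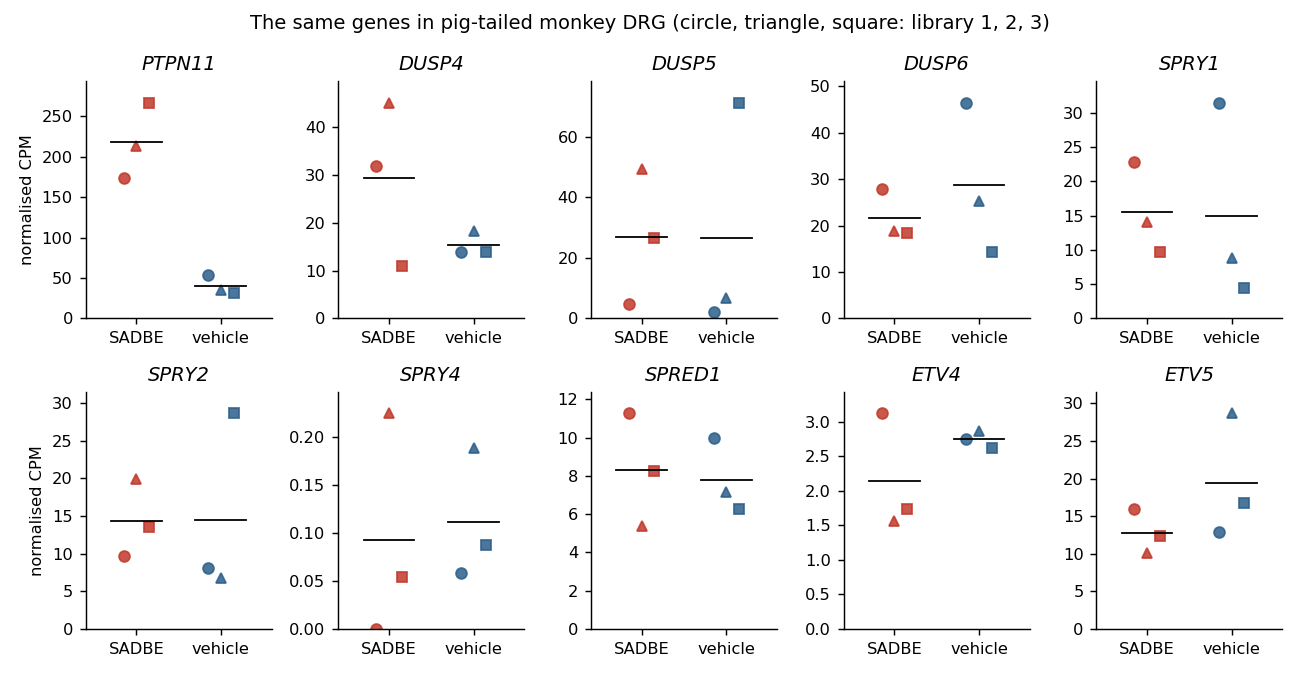
Normalised CPM (linear axis from 0, each panel on its own scale) of the 10 genes in monkey DRG, with SADBE left of vehicle; circles, triangles and squares are libraries 1, 2 and 3 of a group, a number that does not pair the groups, and bars are means. PTPN11 is the only panel in which the groups do not overlap, with 173 to 267 in SADBE and 31.6 to 53.1 in vehicle libraries, and DUSP5 and SPRY2 are highest in vehicle library 3.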

How the data were processed

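Total RNA of fresh frozen ganglia was sequenced in 14 mouse and 6 monkey libraries. Per the submitters' processing notes, the tools include kallisto and the build is GRCm38, which is written on the monkey samples too. The authors deposited estimated counts and TPM per gene. The mouse TPM columns sum to 601 to 834 (in units of 1000) in batch 1 and 954 to 979 in batch 2. A row that names no gene, with 0.0785% to 0.186% of mouse counts, was left out.

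The 10 genes and all lists were chosen with earlier results of these data known. Estimated counts were rounded and tested with edgeR 4.0.16 in R 4.3.3 (filterByExpr, minimum count 10, minimum total count 15, TMM, robust quasi-likelihood), with batch as a term in mice and Benjamini-Hochberg adjustment over all genes tested. Adjusted p under 0.05 was called. SE is the absolute log2 fold change divided by the square root of F. Alternatives were DESeq2 1.42.0, limma 3.58.1 on log2(TPM + 1) and log2(TPM + 0.1), RLE scaling, no filter, single batches, no batch term, a replicate block and libraries left out. The test was checked on simulated counts. Pair correlations used log2(normalised CPM + 0.5) and 100000 permutations. Named besides the 10 genes were up to 4 genes of lowest p per list, the 5 genes most like Dusp6 or Ptpn11 (log2 CPM, prior count 2), and Nefl. Nrg1 and Ntrk3, called but 5th in their lists, were added after their values were seen, as was Gab2. 1 called ligand is not reported here. Mouse positions are from GENCODE M21, and promoters from RefSeq GRCm38.p6. The counting is not known to use strand.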

Additional observations from a re-analysis of the deposited data

Results flagged for a closer look

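Of 20 groups of 7 libraries (10 mouse genes in knockout and in flox), 1 held a library far from the rest. Spry4 had 38.3 normalised CPM in knockout library 5, and its gap to the next library was 0.569 of the range of the 7 knockout libraries, against a critical value of 0.568. Chance flags about 1 in 20 such groups, and the 7 libraries span both batches.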

How the results depend on the processing

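The count of mouse genes called was 2423, and it was 564 with no batch term, 273 in batch 1 alone, and between 1587 (without knockout library 5) and 3108 (without knockout library 4) when 1 library was left out. Of the 10 genes, 0 were called with edgeR. With DESeq2 it was 1 (Dusp5; 21.2% of all genes), in batch 2 alone 1 (Ptpn11; 13.2%), and with 1 library left out 0 to 3: 3 without knockout library 4 (Etv5, Ptpn11, Spry1; 19.7%), 1 without flox library 1 (Spry1; 17.6%) and 1 without flox library 2 (Dusp5; 11.9%). In monkeys 0 genes were called by edgeR in every setting run, against 27 by DESeq2, 0.178% of genes, with 1 of the 10 genes (PTPN11). The cause of these differences was not tested.

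With the replicate block 2103 mouse and 0 monkey genes were called, and 0 of the 10 genes in either species. Replicate numbers did not pair the samples: deviations of same-numbered libraries correlated at -0.22 to 0.27 in mice (2 of 7 over 0.1; 2 of 7 best with their own number) and at -0.39 to 0.30 in monkeys (2 of 3 over 0.1; 1 of 3 best with its own). Ptpn11 kept its sign in 24 of 24 mouse settings, the weakest being -0.02 with no batch term, and PTPN11 in 13 of 13 monkey settings. Dusp4 changed sign in batch 1 alone (0.30), and Spred1 kept its sign in 18 of 24. Counts under 60 limit Dusp4, and under 6 SPRY4.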
